A study of Mus musculus with 6 samples.

Results

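The CD4+/CD8+ T cells are the smallest of the T cell types that the study separated in the neonatal mouse lung. They were taken as the cells of the single high-resolution lymphoid cluster that the study names CD4+/CD8+ T cells, which the deposited cell annotation calls CD8 T cell 2. The cluster was matched to the study's name by its Cd4, Cd8b1, Rag1 and Dntt UMIs (UMIs are unique molecular identifiers, 1 per captured transcript), and by elimination of the other T cell clusters, since no file pairs the study's names with the deposited ones. The cluster used here for regulatory T cells, for example, is deposited as CD4 T cell 2. The type held 89 of 61839 cells, which was 0.144% of all cells, 1.42% of the 6264 lymphoid cells and 2.83% of the 3147 T cells. Lungs of C57BL/6 mouse pups kept in room air (21% O2) or in hyperoxia (85% O2) from P0 were perfused, dissociated and profiled at postnatal day 3, 7 or 14 (P3, P7 or P14), with 6 mice in each of the 6 groups of age and oxygen level. Cells of each mouse had been tagged with a lipid-anchored sample barcode (MULTI-seq) and pooled for droplet sequencing, so the mouse is the replicate. A shared pool, sequenced as 2 libraries, held 3 mice of each P3 and P7 group, and the other 3 P3, the other 3 P7 and both sets of P14 mice came from a P3 pool, a P7 pool and a first and a second P14 pool. The groups held 8899 to 13382 cells, and the UMIs summed over a mouse's cells ranged from 1040712 to 19578324. The rule and the markers name the cluster, so its genes are described here without a test against the other types.

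In the thymus, precursors of αβ T cells pass through a double-positive stage at which they carry both co-receptors, CD4 and CD8. Around this stage the RAG1 and RAG2 proteins cut the T cell receptor genes, terminal transferase (Dntt) adds bases at the joints, and a β chain first paired with the pre-T α chain (Ptcra) is later joined by a rearranged α chain. Cells that pass selection stop recombination, keep a single co-receptor, raise S1pr1, Klf2, Il7r and Ccr7 and leave for the blood and the lymphoid organs. The lung is known for mature T cells rather than for this stage.

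The markers that matched the cluster to its name are given as a description, since they chose it. Rag1 UMIs were present in 78 of the 89 cells (87.6%, exact Clopper-Pearson 95% interval 79.0 to 93.7%), Cd8b1 UMIs in 65 (73.0%), Cd4 UMIs in 51 (57.3%) and Dntt UMIs in 49 (55.1%). These intervals cover counting error only. In CD4+ T cells, which should lack Rag1, Dntt and Cd8b1, the corresponding shares were 0.112%, 0.280% and 5.38%, at a median of 2726 UMIs per cell against 1651 in the CD4+/CD8+ T cells. In CD8+ T cells, which should lack Cd4, a Cd4 UMI was present in 1.53% at a median of 3646 UMIs. The lower depth of the CD4+/CD8+ T cells thus went with higher shares for all 4 markers. After each cell was thinned to 1000 UMIs, which left out 15 of the 89 cells, 24 of 1786 CD4+ T and 22 of 719 CD8+ T cells, the shares were 66.2% for Rag1, 52.7% for Cd8b1, 43.2% for Dntt and 31.1% for Cd4.

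Counted together, 45 of the 89 cells (50.6%, 39.8 to 61.3%) held UMIs of Cd4 and of Cd8a or Cd8b1 in the same cell. A further 29 cells held Cd8 UMIs only, 6 held Cd4 UMIs only and 9 held neither. The same double pattern was found in 2.18% of CD4+ T cells and in 0.695% of CD8+ T cells. At 1000 UMIs it was found in 19 of 74 CD4+/CD8+ T cells (25.7%), in 0.341% of CD4+ T cells and in 0 of 697 CD8+ T cells, which allows a share of up to 0.430%. A UMI of Rag1, Rag2 or Dntt was present in 82 cells (92.1%), and each of these cells also held a UMI of Trbc1 or Trbc2, the constant segments of the β chain. All 4 markers were present in 20 cells (22.5%), at least 2 in 81 cells (91.0%) and none in 3 cells.

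**Figure D1:**
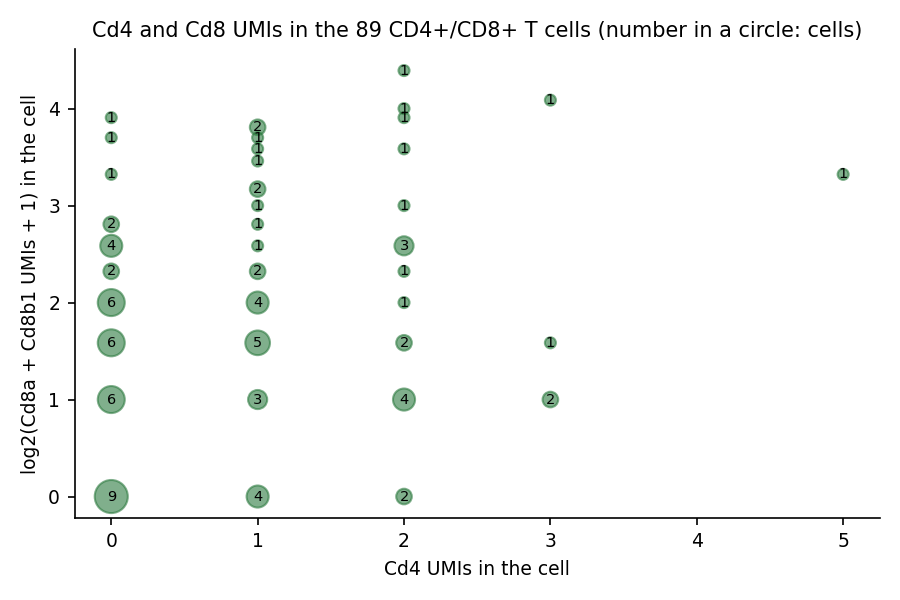
UMIs of Cd4 (x axis) against log2 of the summed Cd8a and Cd8b1 UMIs plus 1 (y axis) in the 89 CD4+/CD8+ T cells, with circle area and printed number giving the cells at each position. The 45 cells off both axes held both co-receptors, and 9 cells lay at the origin.

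The combination of a recombination gene, a β chain constant segment and a co-receptor was nearly absent outside the type. It was found in 76 of the 89 cells and in 15 cells of all other types together, of which 4 were CD8+ T cells and 3 were CD4+ T cells. Others were not T cells: 3 were of the cluster deposited as SMC, and Pericyte 1, Pericyte 2, Cap and B cell 1 held 1 each. The last was a regulatory T cell. Mice that had CD4+/CD8+ T cells, which were 18 of the 36, contributed 13 of those 15 cells. The type held 276 of the 515 Rag1 UMIs in the series (53.6%), and pro-B cells, the other lymphocytes that recombine their receptor genes, held 144 more. It held 131 of 226 Dntt UMIs (58.0%) and 135 of 262 Arpp21 UMIs (51.5%), but only 22 of 148 Ptcra UMIs (14.9%). Of the 20 Rag2 UMIs it held 9 and pro-B cells held 10. Pro-B cells differed from the type in that 0 of 99 had a Cd4, Cd8a or Cd8b1 UMI at a median of 1996 UMIs per cell (a count of 0 allows up to 3.03% of cells with a UMI), and that 1.01% had a Trbc2 UMI against 97.8%. Of the 13 pro-B and B cell genes on the list, 7 had a UMI in the 89 cells, and the list summed to 905 ± 1036 CPM, against 949 in CD4+ T cells and 17846 in pro-B cells. Lef1, which is also on the mature T cell list and was higher in CD4+ T cells, is among the 13. It adds to the sums of the T cell types, so these sums do not compare B cell genes alone. Pax5, Vpreb1, Igll1 and Blnk were among those without a UMI.

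Levels are given as UMIs summed per mouse and scaled to CPM, in which the UMIs of each mouse and type are brought to the same fixed total, as mean ± SD over the 10 mice with at least 3 CD4+/CD8+ T cells, 36 mice with at least 3 CD4+ T cells and 33 with at least 3 CD8+ T cells. CPM is not scaled by gene length, so it compares a gene between types and not 1 gene with another. Rag1, which makes the cutting enzyme, stood at 691 and 216 CPM in the P3 21% O2 mice, 198 in the P3 85% O2 mouse, 249 in the P7 21% O2 mouse, 2509, 1024 and 534 in the P7 85% O2 mice, 2884 and 4255 in the P14 21% O2 mice and 2535 in the P14 85% O2 mouse. The 3 P14 mice and 1 P7 mouse were the high ones, and the groups of the 2 oxygen levels overlapped. The mean was 1510 ± 1426 CPM, against 0.805 in CD4+ T cells, 2.08 in CD8+ T cells and 658 ± 616 in pro-B cells (n = 13 mice), and it was the highest among the 34 cell types. Every one of the 10 mice lay above the highest CD4+ T value of 26.2 CPM and the highest CD8+ T value of 33.9 CPM.

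Dntt, which lengthens the joints, averaged 485 ± 477 CPM against 1.08 in CD4+ T and 2.45 in CD8+ T cells. It reached 1622 CPM in P14 21% O2 mouse 1 and had no UMI in P14 85% O2 mouse 2. Xrcc6, the Ku70 end-binding protein, averaged 342 ± 176 CPM against 14.9 and 20.8, and was higher in pro-B cells (564 ± 545 CPM). On the V(D)J recombination list, Rag1, Dntt, Xrcc6, Dclre1c (Artemis), Lig4 (DNA ligase IV) and Rag2 were at least 2-fold above both mature types over the 9 mice that had at least 3 cells of all 3 types (with 10 CPM added on both sides), whereas Xrcc5 (Ku80) and Prkdc (the DNA-dependent protein kinase) were not, with 6 and 3 UMIs in all. Rag2 was seen in 7 cells (9 UMIs), at 34.3 ± 68.0 CPM against 36.9 in pro-B cells, where it was highest of the 34 types. Rag1 and Rag2 lie 5752 bases apart on opposite strands of chromosome 2 (GENCODE annotation of GRCm38, chr2:101638282-101649501 and chr2:101624718-101632529). Among 7810 genes with enough UMIs, 15.8% were at least 2-fold above both mature types and 7.81% at least 2-fold below both. These counts carry no test.

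Among the co-receptors, Cd4 averaged 411 ± 386 CPM against 149 ± 56.0 in CD4+ T cells and 4.65 in CD8+ T cells. It was above the CD4+ T cells of the same mouse in 8 of these 9 mice. P3 85% O2 mouse 4, which is not among the 9 because it had 2 CD8+ T cells, had no Cd4 UMI in its 3 cells of the type. Cd8a averaged 876 ± 706 CPM against 196 ± 131 in CD8+ T cells, and Cd8b1 870 ± 472 against 360 ± 207. All 3 co-receptor genes were thus higher per UMI than in the mature type that is named for them, and all 3 were the highest of the 34 types. Cd8b1 and Cd8a, which encode the 2 chains of CD8, lie 35932 bases apart on chromosome 6 (chr6:71322788-71337494 and chr6:71373427-71379173), and 43 cells (48.3%) held UMIs of both.

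**Figure D2:**
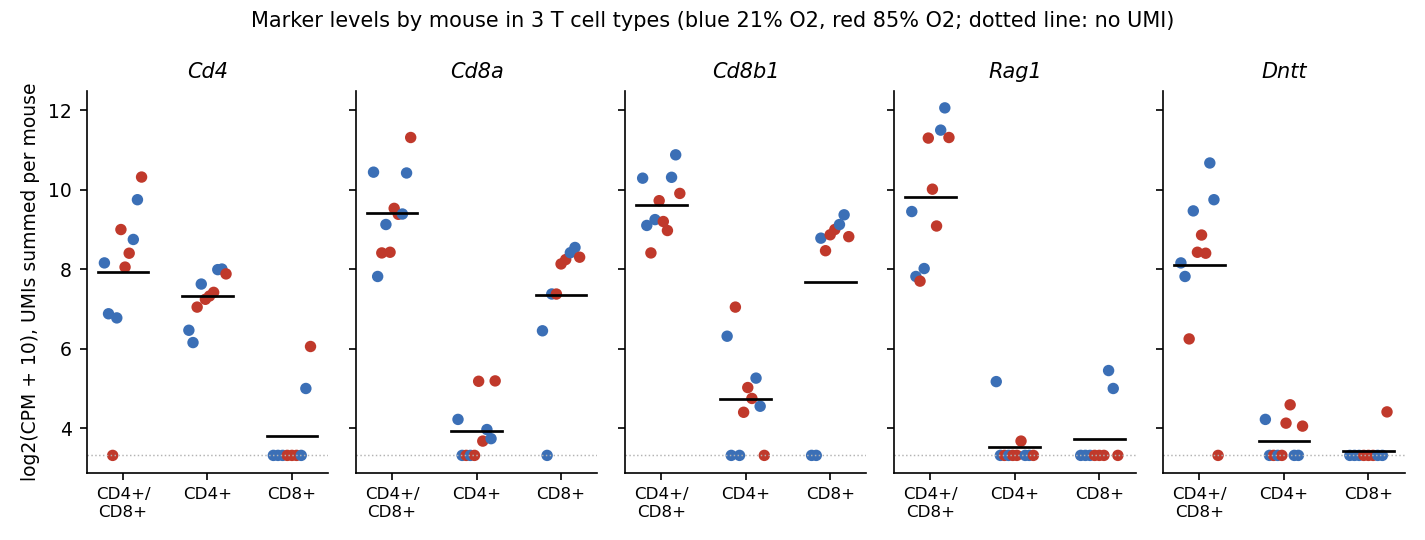
log2(CPM + 10) of Cd4, Cd8a, Cd8b1, Rag1 and Dntt per mouse (points; blue 21% O2, red 85% O2) in the 10 mice with at least 3 CD4+/CD8+ T cells, 9 of which had at least 3 CD8+ T cells, with the mean (bar). Rag1 was above both mature types in 9 of 9 mice, whereas Cd4 in P3 85% O2 mouse 4 and Dntt in P14 85% O2 mouse 2 lay on the dotted line of no UMI.

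The T cell receptor complex was present with an uneven make-up. Trbc2 averaged 4415 ± 1164 CPM against 1903 in CD4+ T and 1437 in CD8+ T cells, and Trbc1 4015 ± 2618 against 1273 and 900. The near-identical sequences of Trbc1 and Trbc2 could split reads between them, so the values of each alone are uncertain. Trac, the α chain constant segment, stood at 305 ± 265 CPM against 406 ± 94.3 in CD4+ T cells and 235 ± 132 in CD8+ T cells. The β chain segments were therefore at least 2-fold above both mature types and the α chain segment was not. Of the CD3 chains that carry the receptor signal, Cd3d (867 ± 322 CPM against 1039 and 952), Cd3e (305 against 248 and 236) and Cd3g (1137 against 995 and 721) were within 2-fold of both, while Cd247 (430 ± 381 against 178 and 110) was above. Lck, the kinase bound to the co-receptors, and Thy1 were also above both by at least 2-fold. Cd2, an adhesion receptor, was the only gene of the 14 on this list at least 2-fold below both (81.2 ± 75.0 CPM against 251 and 214). In all, 8 of the 14 lay at least 2-fold above. A V segment of the β chain was read in 13 cells (14.6%) and one of the α chain in 5 (5.62%), against 8.17% and 3.75% of CD4+ T cells and 0 of 99 pro-B cells. Few V segments are caught by 3' sequencing.

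The double-positive thymocyte list followed the same direction, with 14 of 20 genes at least 2-fold above both mature types and 0 below. Arpp21, an RNA-binding protein abundant in these thymocytes, averaged 678 ± 559 CPM against 6.30 and 1.74. Its values ran from 132 CPM in P3 85% O2 mouse 4 to 1872 in P14 21% O2 mouse 2, and were above both mature types in 9 of 9 mice. Over all mice the ranges met, since 1 CD4+ T sample reached 157 CPM. Ccr9, the receptor for the thymic chemokine CCL25, averaged 639 ± 513 CPM against 36.1 and 28.2 and was also above both in 9 of 9 mice. Themis, a regulator of receptor signal strength (360 ± 334 against 94.4 and 83.9), Tcf12, the E protein HEB (581 ± 355 against 119 and 170), and Myb (604 ± 378 against 82.1 and 90.5) were also higher. Endou (222 ± 150 CPM) and Aqp11 (151 ± 164) were nearly absent from the mature types, all at or below 3.25 CPM. Ptcra was rare, with 22 UMIs in 14 cells, although its 72.8 CPM were the highest of the 34 types. Ets2, Rmnd5a, Tespa1, Mns1 and Bcl2l1 were also among the 14. The 6 remaining genes, Satb1, Tcf7, Bcl11b, Cd28, Cd1d1 and Tmem131l, were less than 2-fold above at least 1 mature type. Of these, the T lineage factors Satb1 (1962 ± 1192 CPM), Tcf7 (1316 ± 572) and Bcl11b (859 ± 538) were abundant in all 3 types.

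The sequences just before the start of 4 of these genes are printed because Rag1, Dntt, Ptcra and Cd8a were high together and HEB, which binds E-boxes, was among the list's higher genes. Each is the 150 bases upstream of the RefSeq start on GRCm38.p6, read 5′ to 3′ along the gene, with E-boxes (CAGNTG) and the Runx core (TGTGGT) in capitals, both searched on both strands. Rag1 (chr2:101649533-101649682, minus strand) held 3 E-boxes and 2 Runx cores, with the third E-box running into the first Runx core. Dntt (chr19:41029125-41029274, plus) and Cd8a (chr6:71373277-71373426, plus) held neither, and Ptcra (chr17:46763713-46763862, minus) held 2 E-boxes starting 60 and 49 bases before the start.
Rag1: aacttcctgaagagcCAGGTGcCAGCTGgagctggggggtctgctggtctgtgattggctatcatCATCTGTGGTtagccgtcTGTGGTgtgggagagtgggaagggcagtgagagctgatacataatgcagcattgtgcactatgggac
Dntt: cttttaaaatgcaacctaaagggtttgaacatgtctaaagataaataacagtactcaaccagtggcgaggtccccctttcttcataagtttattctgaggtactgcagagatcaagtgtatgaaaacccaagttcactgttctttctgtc
Ptcra: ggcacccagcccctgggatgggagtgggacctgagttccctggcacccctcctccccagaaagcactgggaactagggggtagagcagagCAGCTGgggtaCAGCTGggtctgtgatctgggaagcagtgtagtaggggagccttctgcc
Cd8a: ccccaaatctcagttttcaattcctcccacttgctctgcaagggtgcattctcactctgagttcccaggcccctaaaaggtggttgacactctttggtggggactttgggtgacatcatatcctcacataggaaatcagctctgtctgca
Among all 32851 promoters of the same length, 30.1% held an E-box and 8.40% a Runx core. An E-box was found in 14 of the 33 promoters of the 15 double-positive genes with a RefSeq entry, in 3 of 8 promoters of 7 recombination genes and in 5 of 8 promoters of 7 co-receptor and receptor genes, and a Runx core in 1 promoter of each list. Promoters of the same gene are not independent. These are matches of letters and not sites.

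Genes of mature and circulating T cells were low in the type: 15 of the 19 were at least 2-fold below both CD4+ T and CD8+ T cells and 0 were above. S1pr1, the receptor by which T cells leave the thymus, had 2 UMIs in the 89 cells and averaged 5.94 ± 15.7 CPM against 421 ± 125 and 185 ± 91.1. Klf2, the factor that drives S1pr1, averaged 47.2 CPM against 1066 and 572. Il7r, the receptor for the survival cytokine IL-7, had 2 UMIs in all (0.948 CPM against 449 and 312), and Ccr7, the lymph node homing receptor, had 2 UMIs in 1 cell. The class I genes on this list were H2-K1 at 50.8 ± 95.5 CPM against 1509 and 1528, H2-D1 at 153 ± 189 against 1190 and 1324 and B2m at 203 ± 178 against 1310 and 1512. H2-K1 and H2-D1 are close relatives that could share reads. Lef1 (264 CPM against 608 and 315) and Foxo1 (194 CPM against 171 and 121), both transcription factors, were not at least 2-fold below both. Summed over the list, the 10 mice ranged from 414 to 2644 CPM, below the lowest CD4+ T mouse (7154) and the lowest CD8+ T mouse (5127).

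Of the survival genes, Bcl2 was low (40.8 ± 62.4 CPM against 394 and 270) and Bcl2l1, its relative BCL-XL, was high (68.4 ± 57.9 CPM against 12.7 in CD8+ T cells and less in CD4+ T cells). Each is known to be the form used by mature and by double-positive T cells, respectively. Effector T cell genes summed to 129 ± 142 CPM, against 144 in CD4+ T cells and 3868 in CD8+ T cells. Of 14, 5 had any UMI, and Ifng, Gzmb, Prf1, Tbx21, Eomes, Cxcr3, Pdcd1, Gzmk and Foxp3 had none. For each of these, 0 of 89 cells allows a share of up to 3.37% of cells with a UMI at this depth, which does not limit the cells that express the gene. Gzma, a granzyme, had 30 UMIs in 11 cells.

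Genes of the neighbouring thymic stages were mixed. On the double-negative list, Hes1, a Notch target (273 ± 423 CPM against 8.89 and 8.61), Notch1, Notch3 and Il2ra were at least 2-fold above both mature types, Il7r and Cd44 were at least 2-fold below, and Kit and Spi1 had 1 UMI each. On the positive selection list, Id3 (216 ± 302 CPM against 43.8 and 46.2) was above both and Socs3 below. Cd69, an early sign of receptor signalling, was seen in 2 cells, Itm2a in 8 and Zbtb7b, the factor of the CD4 lineage, in 0.

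**Figure D3:**
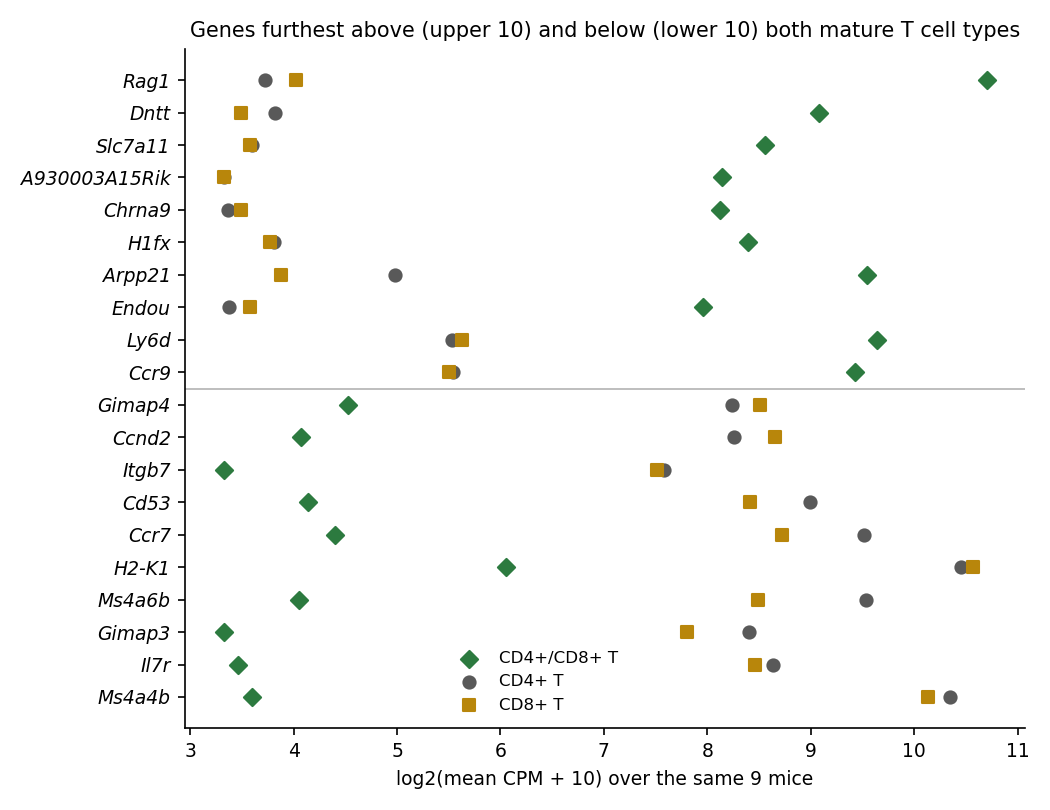
log2(mean CPM + 10) in CD4+/CD8+ T cells (diamonds), CD4+ T cells (circles) and CD8+ T cells (squares) over the same 9 mice, for the 10 genes furthest above (top) and the 10 furthest below (bottom) both mature types. Rag1 stood at the top with a log2 ratio of 6.68 and Ms4a4b at the bottom with -6.54.

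The genes that set the type apart most were ranked by the ratio of mean CPM, with 10 CPM added on both sides, over the same 9 mice. Among the 1501 genes that 25% or more of the CD4+/CD8+ T cells had a UMI of, 70 (4.66%) were at least 4-fold above both mature types. Of 1321 genes seen in at least 25% of both mature types, 53 (4.01%) were at least 4-fold below. Beside Rag1 (log2 ratio 6.68), Dntt (5.26), Arpp21 (4.56), Endou (4.38) and Ccr9 (3.89), the leading higher genes were Slc7a11, the cystine transporter (330 ± 337 CPM), A930003A15Rik, a long non-coding RNA with no UMI in either mature type (271 ± 232 CPM), Chrna9, an acetylcholine receptor subunit (242 ± 381 CPM), H1fx, a linker histone (320 ± 391 CPM), and Ly6d, a surface protein of early lymphocytes (711 ± 783 CPM). Ly6d was higher still in pro-B cells (1789 ± 1107 CPM). The leading lower genes were Ms4a4b (log2 ratio -6.54), Il7r (-5.00), Gimap3 (-4.48), Ms4a6b (-4.44), H2-K1 (-4.40), Ccr7 (-4.33), Cd53 (-4.27), Itgb7 (-4.19), Ccnd2 (-4.19) and Gimap4 (-3.71). The higher genes held in fewer mice in some cases: Rag1, Arpp21 and Ccr9 were above CD4+ T cells in 9 of 9 mice, Dntt, Endou and A930003A15Rik in 8, Slc7a11 and Ly6d in 7 and H1fx and Chrna9 in 6, with a median of 45.5 CPM for Chrna9. Each of the 10 lower genes was below both mature types in 9 of 9 mice. Itgb7, an integrin of gut homing, and Gimap3, a lymphocyte survival GTPase, were at 0 CPM in all 10 mice. Without the mouse that held the most cells, 9 of the 10 higher and 9 of the 10 lower genes were the same, and with CPM summed over all cells 8 and 9 were.

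As a description over 3359 genes, the mean profile of the type was most like that of CD4+ T cells (Pearson r = 0.856), followed by CD8+ T cells (0.834), regulatory T cells (0.819) and pro-B cells (0.802). The order of these 4 is also that of their numbers of cells (1786, 719, 371 and 99), and small types give noisier profiles. B cells, with 2356 cells, lay lower (0.787). Genes are not independent replicates, and the types share libraries and may share free RNA. Sftpc, the surfactant gene of alveolar type 2 cells, had a UMI in 89.9% of the CD4+/CD8+ T cells, 90.1% of CD4+ T cells and 88.9% of pro-B cells. These shares are of unthinned cells, whose depth differed between the types. Free RNA as the source of Sftpc was not tested. The 12 lung epithelial and stromal genes summed to 2375 ± 1174 CPM, against 3726 ± 7063 in CD4+ T and 2050 ± 561 in CD8+ T cells. The mean of their sum lay between those of the mature types. The CD4+ T mean was raised by a single mouse at 44589 CPM.

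Genes of other sources were examined in the same way. Of 11 thymic stroma genes, Psmb11, Prss16, Aire, Krt5, Tbata, Dll4 and Cd80 had no UMI, Ctsl (335 ± 245 CPM) was at least 2-fold above both mature types, and Ccl25 stood at 18.9 CPM against 16.7 and 20.8. Of 13 pro-B and B cell genes and 11 γδ T and innate lymphoid genes, 0 were at least 2-fold above both. The myeloid genes S100a8 and S100a9 were above, at 48.6 and 66.2 CPM, and the red cell list had 1755 UMIs, of which 1647 were in 1 cell of P7 85% O2 mouse 6. A second cell, of P7 21% O2 mouse 1, held 65 B cell UMIs and 19 myeloid UMIs. Their part in the levels was not tested. Of the 89 cell barcodes, 0 occurred in another library, against 792 of all cells (1.28%). A cell's own sample barcode was the most abundant in 87 of the 89 cells (97.8%), with a median of 66.0% of its sample barcode UMIs. The same held for 92.2% of CD4+ T cells and 92.1% of CD8+ T cells. Cells had been assigned to mice by these barcodes, so this is not a separate check.

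Many of the cells were in cycle. At least 5 UMIs of the 18 G2/M genes were held by 25 cells (28.1%), 38 cells held none, and only 2 cells lay between 4 and 6, near the threshold. These 25 cells had a median of 5553 UMIs and the other 64 a median of 1419. After thinning to 1000 UMIs, 19 of 74 cells (25.7%) still held 5, against 2.89% of CD4+ T, 7.03% of CD8+ T and 19.4% of pro-B cells. On the G2/M list 16 of 18 genes were at least 2-fold above both mature types, among them Hmgb2, a chromatin protein (2880 ± 2070 CPM against 784 and 1218), Mki67 (398 ± 368 CPM against 121 and 188), Top2a (499 ± 366 against 170 and 175) and Ube2c (676 ± 563 against 94.8 and 90.9). Of 19 G1/S and S phase genes, 6 were, including Ccnd3, the cyclin of β selection (590 ± 386 against 143 and 106), Uhrf1 and Rrm2. The deposited phase calls put 53.9% of the cells in G2/M, 30.3% in S and 15.7% in G1, and 44.7% of CD4+ T cells were also called G2/M, so these calls separated the types less than the gene counts did.

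The 25 cells with G2/M UMIs and the 64 others also differed in the genes of the stage. Pooled over cells and with exact Poisson intervals for counting error, Rag1 stood at 379 CPM (294 to 481) in the former and 1982 CPM (1723 to 2270) in the latter. Cd4 (158 against 503 CPM), Ccr9 (243 against 863), Trac (119 against 398), Arpp21 (322 against 740), Themis (221 against 512) and Cd8b1 (481 against 854) lay in the same direction, with intervals that did not overlap. Cd8a, the other chain of CD8, lay in the other direction (752 CPM, 630 to 891, against 522, 393 to 679), with overlapping intervals, and Trbc1 (3795 against 3575), Ptcra (79.2 against 75.9) and Dntt (407 against 560) had overlapping intervals as well. Counted per cell and not per UMI, Rag1 was also lower in the cells with G2/M UMIs (67 UMIs in 25 cells against 209 in 64). By that count Cd4 was higher (28 UMIs in the 25 cells against 53 in the 64). Ccr9, Trac, Arpp21, Themis and Cd8b1 were higher too, so their direction depends on the scaling. The intervals take all UMIs as independent. Of the cells with G2/M UMIs, 8 came from P7 85% O2 mouse 4 and 7 from mouse 6. These cells came from 9 mice and the others from 17, so mouse and depth move with this comparison. Their part in it was not tested.

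The cycling cells were unevenly spread over mice. P7 85% O2 mouse 4 had 8 of 30 and mouse 6 had 7 of 12, whereas P14 21% O2 mouse 1 had 0 of 12 and mouse 2 had 0 of 6. P14 85% O2 mouse 2, of the same age and pool as the latter, had 2 of 3. At 1000 UMIs these counts were 6 of 30, 7 of 12, 0 of 10, 0 of 3 and 0 of 1. Summed G2/M genes stood at 481 and 170 CPM in the P14 21% O2 mice and between 1338 and 14249 CPM in the other 8, with 9189 CPM in P14 85% O2 mouse 2. The V(D)J list was highest in the 3 P14 mice, with 5588 and 6127 CPM in the P14 21% O2 mice, 3485 in the P14 85% O2 mouse and 925 to 3011 CPM in the P3 and P7 mice. The double-positive list likewise stood at 15743, 15487 and 9506 CPM at P14 and 4231 to 8839 CPM earlier. All CD4+/CD8+ T cells at P14 came from 1 pool, so age and pool cannot be told apart for the V(D)J and double-positive lists. None of these differences was tested.

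**Figure D4:**
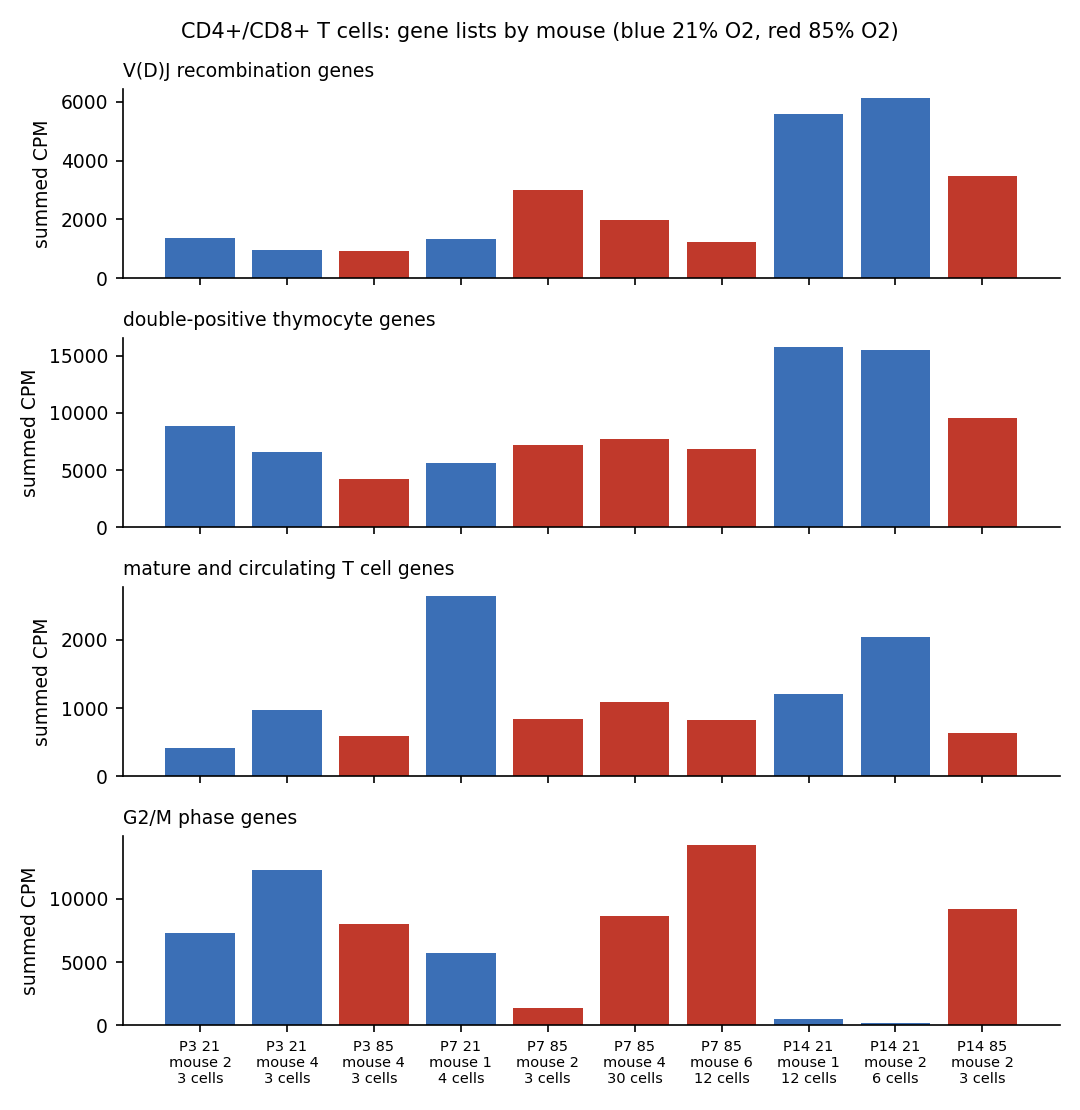
Summed CPM (y axes, from 0) of the V(D)J recombination, double-positive thymocyte, mature T cell and G2/M gene lists in the CD4+/CD8+ T cells of the 10 mice with at least 3 such cells (x axis, with the number of cells; blue 21% O2, red 85% O2). The P14 21% O2 mice had the highest V(D)J sums, 5588 and 6127 CPM, and the lowest G2/M sums, 481 and 170 CPM.

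The type was found in 18 of the 36 mice, the fewest of any of the 34 types. At P3, the 6 mice in 21% O2 held 0, 3, 0, 3, 0 and 1 cells, and the 6 in 85% O2 held 0, 0, 2, 3, 0 and 0. At P7 they held 4, 0, 0, 1, 1 and 1 in 21% O2 and 0, 3, 0, 30, 0 and 12 in 85% O2. At P14 they held 12, 6, 1, 0, 0 and 0 in 21% O2 and 1, 3, 2, 0, 0 and 0 in 85% O2. A single mouse, P7 85% O2 mouse 4, thus held 33.7% of all CD4+/CD8+ T cells, and 3 mice held 60.7%. The largest part that a mouse held of any other type was 13.1%, for pro-B cells, but small types give large parts more readily. By the spread over mice relative to counting error the type ranked 14 of 34. That measure in turn tends to grow with the number of cells. It was 4.61 for the 89 cells of the type, 2.65 for the 99 pro-B cells and 4.89 for the 440 natural killer cells. No type of fewer than 440 cells lay above 4.61. The 30 cells of P7 85% O2 mouse 4 were 1.55% of its 1931 cells (1.05 to 2.21%) and 18.0% of its T cells. Mouse 6 of that group followed with 0.746% of 1608 cells. All 42 cells of these 2 mice had their own sample barcode as the most abundant, with a median share of 75.0% in mouse 4 and 71.5% in mouse 6. Cells had been assigned to mice by the same barcodes, so this is not a separate check of their origin. The 6 mice of the second P14 pool held 0 of 10439 cells, which allows a share of up to 0.0287%, while the first P14 pool held 25. This limit covers counting error only and takes the cells of the 6 mice as independent, so the spread between mice is not in it.

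Mean shares of all cells at 21% and 85% O2 were 0.0751% ± 0.116 and 0.0549% ± 0.0851 at P3, 0.0766% ± 0.0859 and 0.411% ± 0.630 at P7, and 0.121% ± 0.178 and 0.0816% ± 0.115 at P14 (SD, n = 6 mice each). The groups overlapped at every age. P7 85% O2 mouse 5 had only 125 cells, for which 0 cells allow up to 2.40%. The difference between oxygen levels was 0.335 percentage points at P7 (two-sided exact permutation test, p = 0.335, adjusted p = 0.600 over 34 types and 3 ages), and it did not pass the threshold of 0.05. At P3 it was -0.0201 (adjusted p = 0.911) and at P14 -0.0392 (adjusted p = 0.878) by the same exact test. Among the 34 types, 2.94% were called higher and 5.88% lower at P7, 0% in either direction at P3, and 23.5% higher and 8.82% lower at P14. The smallest p that the 924 splits of 6 against 6 mice can give is 0.00216.

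**Figure D5:**
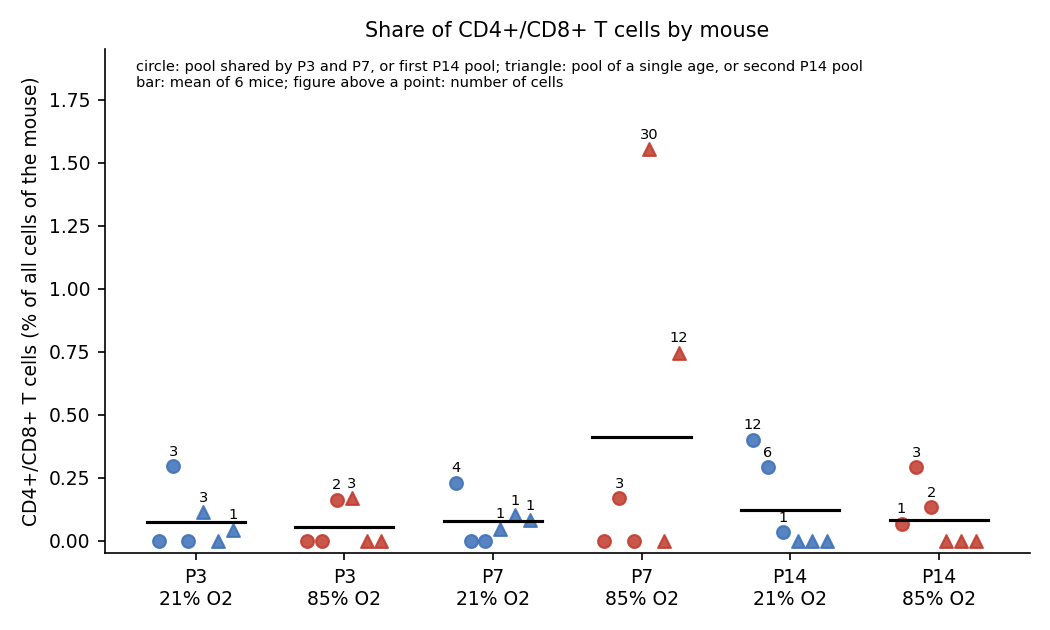
CD4+/CD8+ T cells as a percentage of all cells of each mouse (points, 6 mice per group of age and oxygen level; blue 21% O2, red 85% O2; bar, group mean; number of cells above each point with any). P7 85% O2 mice 4 and 6, at 1.55% and 0.746%, lay above all other mice, which were at 0.400% or less.

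The 2 high mice came from the P7 pool. Within that pool the difference at P7 was 0.690 percentage points, from a mean of 0.0765% to 0.767%, whereas within the pool shared with P3 it was -0.0205. Without P7 85% O2 mouse 4 the P7 difference was 0.106 percentage points. A count model of the cell numbers (edgeR quasi-likelihood test) gave a log2 fold change of 2.62 (SE 1.05, adjusted p = 0.0909) at P7, which also missed the threshold.

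Ages did not differ past the threshold at either oxygen level. In 21% O2 the share differed by 0.00158 percentage points from P3 to P7, by 0.0441 from P7 to P14 and by 0.0457 from P3 to P14 (exact permutation tests, adjusted p = 0.978, 0.774 and 0.821). Over the same steps 8.82%, 2.94% and 23.5% of the 34 types were called higher, and 2.94%, 5.88% and 14.7% lower. In 85% O2 it differed by 0.357 from P3 to P7, by -0.330 from P7 to P14 and by 0.0266 from P3 to P14 (adjusted p = 0.515, 0.600 and 0.816 by the same exact test), where 8.82%, 0% and 17.6% of types were called higher and 0%, 0% and 2.94% lower. Without P7 85% O2 mouse 4 the steps to and from P7 were 0.128 and -0.101, and within the pool that held both P3 and P7 mice the step from P3 to P7 was 0.00216. The effect of oxygen at P7 exceeded that at P3 by 0.355 percentage points (permutation test, adjusted p = 0.528), while that at P14 was below that at P7 by a difference of -0.374 (adjusted p = 0.506) and differed from that at P3 by -0.0191 (adjusted p = 0.905). For these differences of effects 0% of the types were called.

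Within the CD4+/CD8+ T cells, genes were compared between 85% and 21% O2 over the 10 mice with at least 3 cells (5 at each level), with age in the edgeR model. Of 271 genes with enough UMIs, 0 passed an adjusted p of 0.05 (0% higher, 0% lower), 13 had an unadjusted p under 0.05 (3 higher and 10 lower, 4.80% of the genes), and DESeq2 called 0 with 14 at an unadjusted p under 0.05. Xist, the X inactivation RNA of female cells, was among the 10 lower ones (1067 ± 1081 CPM in 21% O2 and 167 ± 374 in 85% O2, log2 difference -3.09, SE 1.29, edgeR adjusted p = 0.755). The sex of the mice may thus have differed between the oxygen levels. The study names as a limitation that the sexes were unevenly distributed at P3 and P7, and evenly at P14. The part of sex in these values was not tested. Summed UMIs per mouse ran from 3156 to 105446. For simulated counts of these mice, the genes to change were drawn among those with the most UMIs. Of the changed genes that passed the filter on low counts, the test recovered 17.1% at 2-fold, 87.4% at 4-fold and 99.7% at 8-fold. Changed genes that did not pass this filter were not tested and are not in these shares. Changes of 2-fold were thus mostly missed with these mice. Genes that had not been changed made up 2 of the 93 calls at 2-fold, 57 of 774 at 4-fold and 219 of 1176 at 8-fold, the latter pair above the level of 0.05. These calls came from 8 simulated draws, whereas 0 of the 271 measured genes were called. Whether the recovered shares hold for the measured counts was not tested. Among the measured genes, Jun at a log2 difference of -2.70 (SE 0.83, edgeR adjusted p = 0.473) did not pass. Neither did Xist at -3.09 (SE 1.29). The shares therefore set no limit on changes of 4-fold or 8-fold in these mice.

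The markers gave log2 differences of 0.26 for Rag1, 0.55 for Cd4, 0.14 for Cd8a, -0.66 for Cd8b1 and -0.33 for Arpp21, none of which passed (edgeR, adjusted p of 0.928 or more). The age-adjusted sign for Rag1 ran against its unadjusted group means of 1659 CPM in 21% O2 and 1360 CPM in 85% O2, so no direction is read from it. Dntt was at -1.46 (SE 0.61, edgeR adjusted p = 0.755). Trbc2 had the smallest p among genes with a higher value in 85% O2. It stood at 3591, 2699, 3143, 4206 and 3233 CPM in the 21% O2 mice and at 5289, 5353, 5396, 5535 and 5703 CPM in the 85% O2 mice. These groups did not overlap, and Trbc2 was the only such gene in this direction (1 of 271 genes, 0.369%). The log2 difference of 0.61 (SE 0.24) did not pass (edgeR adjusted p = 0.755).

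Sox4, a factor of lymphocyte precursors, was among the genes with the smallest p in the other direction. It stood at 2072, 648, 1995, 1562 and 851 CPM in the 21% O2 mice and at 198, 1506, 673, 534 and 634 CPM in the 85% O2 mice. Its groups overlapped, whereas those of 0.738% of genes did not in this direction, Eef2, a translation factor named after its values were seen, being one of them. The log2 difference of Sox4, -1.72 (SE 0.48), did not pass (edgeR adjusted p = 0.342). Neither did that of Jun, an early response factor (-2.70, SE 0.83, edgeR adjusted p = 0.473). In the higher direction H2afz (1.32), a histone variant, and Sumo2 (1.02), a protein modifier, overlapped between the groups and did not pass either. Without P7 85% O2 mouse 2, which had 3 cells, Sox4 was the only gene called (edgeR adjusted p = 0.0422).

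By list, 10 of the 14 co-receptor and receptor genes, 2 of the 8 recombination genes, 7 of the 20 double-positive genes, 4 of the 18 G2/M genes, 1 of the 19 G1/S genes, 2 of the 12 lung genes and 1 of the 13 apoptosis genes could be tested, and 0 were called in either direction. The median log2 difference was -0.03 for the co-receptor and receptor genes, -0.27 for the double-positive genes and 0.69 for the G2/M genes, beside -0.04 over all 271. No gene of the other lists passed the filter on low counts. Between the types, the lists that bear on hyperoxia showed 1 of 10 p53 and DNA damage genes (Trp53inp1), 1 of 14 oxidative stress genes (Mt1) and 4 of 13 apoptosis and stress genes at least 2-fold above both mature types. This stands beside 15.8% of the 7810 genes with a mean of at least 10 CPM over the 3 types. Of 12 interferon response genes, 5 were at least 2-fold below both, beside 7.81% of those 7810 genes. The lists were not filtered by level: 9 of the 10 p53, 11 of the 14 oxidative stress and 10 of the 12 interferon genes had a UMI in the type.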

How the data were processed

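Single-cell RNA of 36 mouse lungs was sequenced in 6 libraries (10x 3' chemistry). Per the submitters' processing notes, reads were aligned to mm10 with Cell Ranger 3.0.2. The authors assigned cells to mice by their sample barcodes, filtered cells on genes (over 200) and mitochondrial percent (up to 20 stated) and clustered them. The deposited UMI counts and sample barcode counts were used as raw counts. The deposited mitochondrial percent, cell cycle score phases, age, oxygen level and cluster were taken from the cell annotation, and 9 of its columns were not used. The authors removed cells positive for several sample barcodes and clusters with markers of another cell type, which does not catch every doublet within a mouse. No further doublet removal was run.

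Mice were identified by pool and sample barcode. UMIs were summed per mouse and type (at least 3 cells) and scaled to CPM. Ratios of levels used log2(mean CPM + 10). Shares for the 4 markers, the double co-receptor pattern and the G2/M genes are also given after thinning to 1000 UMIs. Other shares of cells are of unthinned cells, so depth bears on them. Shares of cells were tested with exact permutation tests over mice, or 100000 resamples of the oxygen labels within ages, adjusted over 102 tests. Genes were tested with edgeR 4.0.16 (quasi-likelihood, TMM, filterByExpr, age as covariate), called at an adjusted p of 0.05 with a UMI in 10% of the cells of 1 oxygen level, and with DESeq2 1.42.0 as an alternative (R 4.3.3, Python 3.11.15). Scripts were tested on simulated data. Alternatives covered the denominator, filters, thinning, pool, scaling and leaving out each mouse.

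Named genes were all of the co-receptor, recombination and double-positive lists, up to 5 by level of each other list, the 10 leading genes in each direction and the 3 smallest p in each direction for oxygen. S1pr1, Klf2, Bcl2 and the genes given at or near 0 were named after their values were seen. T cell receptor V segments, Y-linked genes and Xist were left out of the rankings. The members and the 19 gene lists were chosen with earlier results of these data known. Pups were randomised to litters and dams were rotated, and the mice of a group are separate animals whose litters are not given. Sequences are from RefSeq (GRCm38.p6) and gene positions from GENCODE. Some genes that these rules name are not reported here.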

Additional observations from a re-analysis of the deposited data

Results flagged for a closer look

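Of 45 groups of mice examined for a single distant value, 4 were flagged, and chance flags about 1 in 20. Among the 5 mice in 85% O2, Cd8a was far higher in P14 85% O2 mouse 2 (2535 CPM from 3 cells) than in the others, and Jun was highest in P7 85% O2 mouse 2 (836 CPM, 3 cells). Among all 10 mice, red cell genes summed to 22950 CPM in P7 85% O2 mouse 6, where 1 cell held 1647 of their UMIs. Genes of pro-B and B cells summed to 3741 CPM in P7 21% O2 mouse 1, where 1 cell held 65 of their UMIs. The causes were not tested.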

How the results depend on the processing

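Of 267 alternative values, 242 kept their direction and their side of the threshold or moved less than the spread, and 19 reversed in sign, all of them differences of shares that were not past the threshold in any of 146 alternatives. As a share of lymphoid cells, the difference between oxygen levels at P3 was 0.0895 percentage points, and of T cells 0.301. The lymphoid denominator also turned the 21% O2 differences to -0.748 (P3 to P7), -0.176 (P7 to P14) and -0.924 (P3 to P14) and the 85% O2 difference from P3 to P14 to -1.18, and ranks turned P7 to P14 in 21% O2 to -0.333. A replicate block by pool, which kept the shared pool only, gave P3 to P7 differences of -0.0212 in 21% O2 and 0.00216 in 85% O2. Labels permuted within pools gave adjusted p = 0.899, 0.526 and 0.762 at P3, P7 and P14 (exact permutation), and the pool added to the gene model as a block called 0 genes. Mice carry no replicate number of their own in the labels, so the pool served as the block.

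Leaving out each mouse in turn gave oxygen differences of -0.0426 to 0.0237 at P3, 0.106 to 0.417 at P7 and -0.0809 to 0.0167 at P14. The same gave, in 21% O2, -0.0292 to 0.0454 (P3 to P7), -0.0118 to 0.0749 (P7 to P14) and -0.0102 to 0.0895 (P3 to P14), and in 85% O2 0.128 to 0.439, -0.412 to -0.101 and -0.0151 to 0.0491. The sign turned without P3 21% O2 mouse 2 (P3), P14 21% O2 mouse 1 (P14, and both steps to P14 in 21% O2), P14 85% O2 mouse 2 (P3 to P14 in 85% O2) and any of 6 mice for P3 to P7 in 21% O2. Leaving out a mouse gave 0 to 1 called genes. Without a filter on low counts 1 gene was called, the red cell gene Hbb-bs. Without thinning, Cd4 was seen in 57.3%, Cd8b1 in 73.0%, Rag1 in 87.6% and Dntt in 55.1% of cells, and at 500 UMIs in 27.0%, 32.6%, 47.2% and 23.6%. The number of genes 4-fold above both types was 54 to 73 and below 48 to 52, the alternatives without the largest mouse and with CPM summed over cells having been chosen after seeing the data. Depth limits the rarer genes: 15 of the 89 cells held under 1000 UMIs.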
